A study of Mus musculus with 9 samples.

Results

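The Lin41 knockdown was compared with its control hairpin in mouse R1 embryonic stem cells, over all genes of the deposited tables. The comparison took 6 of the 9 libraries of the series, 3 labelled sh-Lin41 and 3 labelled sh-ctrl. The genes named below were picked from its results, most of them by a fixed rule on fold change and level. Of 22322 genes listed, 13158 had enough counts to be tested. R1 is an established line of mouse embryonic stem cells, and all groups are labelled as wild type in genotype. Per the labels, the cells were grown with LIF, the cytokine that maintains mouse stem cells, and were then kept in suspension without it to day 6 so that they formed embryoid bodies, the aggregates in which stem cells begin to differentiate. The sh-ctrl cells carry a control hairpin and the sh-Lin41 cells a hairpin against Lin41. The 3 libraries of sh-Pfkp, a hairpin against the phosphofructokinase gene Pfkp, entered the gene filter and the fit with its estimate of the spread. For some named genes, sh-Lin41 was also contrasted with sh-Pfkp. The labels name 1 hairpin per gene and no rescue, so what is particular to the hairpin or to the cell population that carries it cannot be told apart from the knockdown. Separate cultures are not named for the replicates, and p-values therefore reflect the variation among these libraries, which can be technical.

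Lin41 is the protein of Trim71, a TRIM-NHL factor with a RING domain and an NHL domain that folds into an RNA-binding propeller. It recognises hairpins in mRNAs, represses their translation and promotes their decay, and it is present in early embryos, stem cells and germ cells and lost as cells differentiate. Trim71 mRNA is itself a classical target of the microRNA let-7, which accumulates during differentiation and which the Lin28 proteins hold back in stem cells.

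Total counts per library lay between 15495194 and 20607683. With 3 libraries a side, edgeR's quasi-likelihood test called 54.3% of the tested genes at an adjusted p under 0.05, namely 26.9% higher and 27.3% lower in sh-Lin41, and all shares below are to be read against these. The median log2 fold change of all tested genes was 0.00. Most called differences were small, since 39.6% of them were under 0.25 and 33.6% between 0.25 and 0.5 on the log2 scale, and at least 2-fold differences were 2.04% (higher) and 2.22% (lower) of the tested genes. The called share rose with the level, from 22.4% of genes under 1 CPM (read counts scaled to one common library total) to 76% of genes between 100 and 1000 CPM, where the median standard error (SE) was 0.0273. At 1000 CPM and above, 52 of 80 genes fell and 17 rose. The mitochondrially encoded transcripts took 5.15 to 5.32% of the counts in sh-ctrl and 7.19 to 7.43% in sh-Lin41, and their part in the other results was not tested.

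**Figure D1:**
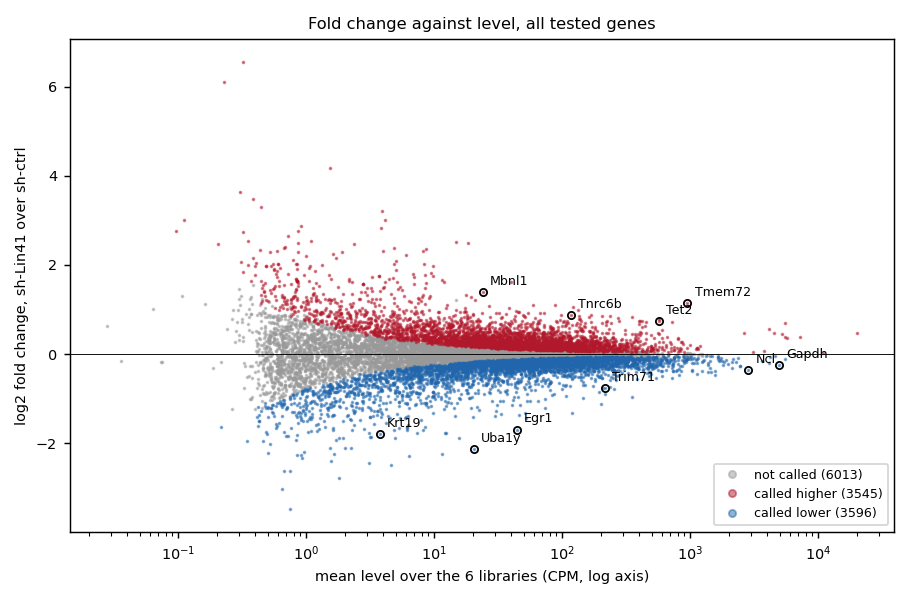
Log2 fold change of sh-Lin41 over sh-ctrl against the mean level over the 6 libraries (CPM, log axis) for each tested gene, with called genes in colour and some genes of the text circled and named. Genes at 0 in all 6 libraries are not drawn. Of 80 genes at 1000 CPM and above, 52 lie in the lower and 17 in the higher group.

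The markers fixed for embryonic stem cells were present in every library. All 8 of them, among them Pou5f1, Sox2, Nanog and Esrrb, were over 10 CPM in each of the 6 libraries, and their summed level was 4730 to 4810 CPM in sh-ctrl and 5630 to 5660 CPM in sh-Lin41. Markers of other cell types were low. The summed level of 4 definitive endoderm markers was 0.286 to 0.436 CPM in sh-ctrl and 0.33 to 0.675 CPM in sh-Lin41, and 1 of them had 0 counts in all 6 libraries. Of 6 fibroblast markers 3 were under 1 CPM in all 6 libraries, with sums of 13.3 to 14.4 CPM and 9.16 to 10.8 CPM. Of 4 macrophage markers 3 had 0 counts in all 6 libraries. The remaining one, Cd68, a lysosomal protein that is not restricted to macrophages, made the sums of 7.29 to 8.64 CPM and 9.41 to 11 CPM. The 5 neuroectoderm markers summed to 81.4 to 83.2 CPM and 76.1 to 82.2 CPM, ranges that overlap. In these bulk libraries, fewer cells of a type and less RNA per cell cannot be told apart.

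The targeted gene was lower, but most of its mRNA remained. Trim71 (ENSMUSG00000079259) had 273, 264 and 269.7 CPM in control and 165, 158 and 156 CPM in knockdown libraries. The groups did not overlap, as was the case for 59% of all tested genes, and the log2 fold change was -0.75, SE 0.0257, with an edgeR adjusted p of 1.32e-21 (n = 3 per group). The part of Trim71 that is known to be read by let-7 is its 3' UTR. The mature microRNA is shown first, with its seed (bases 2 to 8) in capitals, and below it the 3' UTR stretches that hold the 7-base match to that seed, from GENCODE M21 transcripts (5' to 3', match in capitals), for genes that went different ways in this knockdown. The microRNA sequence is from RefSeq.
mmu-let-7a-5p: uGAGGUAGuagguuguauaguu
Trim71, bases 166 to 172 of a 3' UTR of 5512: aacattgcctaagtcCTACCTCagctta
Trim71, bases 262 to 268: agtgataatttctatCTACCTCaactct
Lin28a, bases 909 to 915 of 2775: gcacagcctgttgaaCTACCTCattttt
Igf2bp1, bases 1715 to 1721 of 6337: gctgtgcgaagtaaaCTACCTCaaggtg
Hmga2, bases 58 to 64 of 3014: gccgacattcaatttCTACCTCagcatc
The UTR of Trim71 held 4 such matches, as did those of Igf2bp1, Hmga2 and Lin28b, and that of Lin28a held 2.

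The genes given above with this site did not move in 1 direction. In the list of 16 genes of LIN28 and let-7 control, which was not chosen by the site, 6 rose and 5 fell. Lin28a, which blocks let-7 maturation, had 295, 300.2 and 303 CPM in control and 231, 231 and 226 CPM in knockdown libraries, with no overlap, and fell (-0.39, SE 0.0225, adjusted p = 1.13e-15 by edgeR), as did its paralog Lin28b (-0.54, SE 0.0587) and the let-7 target E2f5 (-0.56, SE 0.0547). The cyclin gene Ccnd2 rose from 46.4 ± 3.28 to 87.8 ± 3.04 CPM (SD, n = 3; 0.92, SE 0.0471), while Igf2bp1, an mRNA-binding protein of stem and cancer cells, rose by a small step from 543 ± 9.53 to 576 ± 1.6 CPM (0.09, SE 0.018). Hmga2, a chromatin protein and textbook let-7 target chosen here after its values were seen, was not called (log2 fold change -0.02, 95% interval -0.23 to 0.19). Over all tested genes, 30.2% of the 1394 genes with a let-7 match in the 3' UTR were called higher and 26.3% lower, against 26.5% and 27.7% of the 11489 genes without one.

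The shares called higher and lower differed more with the length of the 3' UTR than with this site. Among the 4296 genes with the longest 3' UTRs (1852 bases or more), 33.4% were called higher and 25.3% lower, and among the 4293 genes with the shortest (under 729 bases), 21.7% and 28%. Within the longest UTRs the share called higher was 34.1% with a let-7 match and 33.2% without. The same shares were 34.7% and 32.7% for the seed match AGCACTT of miR-294-3p, the major microRNA of mouse stem cells, and 36.2% and 32.1% for the match CAGTATT of miR-200b-3p, an epithelial microRNA. With the Pumilio element TGTANATA, read by the PUF repressors, they were 37% of 2032 genes and 30.2% of 2264, and with the AU-rich letters TATTTAT 35.2% and 31.4%. For the miR-9 seed match ACCAAAG they were 33.2% and 33.5%. In the shortest UTRs the order was turned for let-7 (19.2% with and 21.8% without), miR-294-3p (20.3% and 21.8%) and the Pumilio element (19.9% and 21.9%), and 33.5% of genes with the Pumilio element were lower there against 27.5% without it. The letters were searched on the sense strand only, matches of different kinds may overlap, and a match is a description, not a site in use. Genes with long UTRs also differ in level and function, and these shares carry no test.

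RNA regulators, taken over 18 lists, were more often lower than higher. Of 501 distinct genes tested, 43.3% fell and 24.2% rose, with a median log2 fold change of -0.06, and 7 changed at least 2-fold. These genes are abundant, and abundant genes were more often lower in general. Between 100 and 1000 CPM 49.6% of 266 RNA regulators fell and 27.1% rose, against 44.6% and 31.3% of all 2192 tested genes at that level, and between 10 and 100 CPM 31.8% of 173 fell and 26% rose, against 27.3% and 31.6% of 6367. The direction differed between branches of RNA control, as the plot of RNA regulator lists shows.

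**Figure D2:**
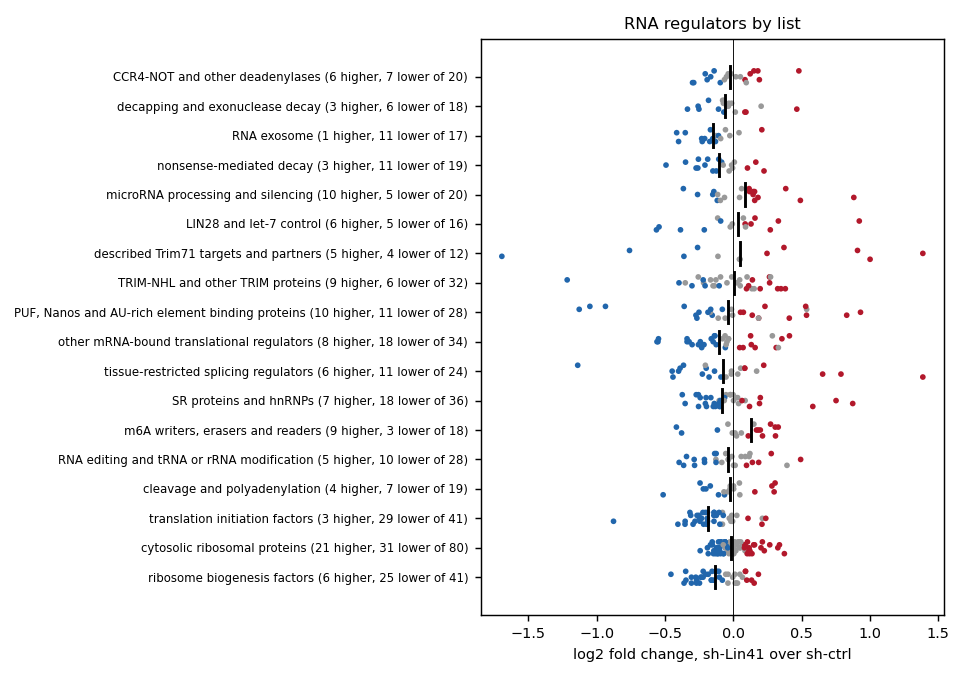
Log2 fold change of sh-Lin41 over sh-ctrl for each tested member of the RNA regulator lists (red called higher, blue called lower, grey not called; black bar, median). Of 41 translation initiation factors 29 lie in the lower called group and 3 in the higher.

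Of 20 tested genes of microRNA processing and silencing 10 rose and 5 fell (median 0.09). Argonaute proteins carry the microRNA, and GW182 proteins (the Tnrc6 genes) bridge them to the deadenylases. Tnrc6b had 80.6, 85.5 and 81.5 CPM in control and 152, 154 and 149.6 CPM in knockdown libraries, so that every knockdown library lay above every control (0.88, SE 0.0322, adjusted p = 6.72e-21 by edgeR). Tnrc6a rose from 108 ± 3.56 to 152 ± 4.08 CPM (SD, n = 3; 0.49, SE 0.0325). The Argonaute genes did not move together, since Ago3 rose (0.15, SE 0.0457; not called with DESeq2) and Ago1 (log2 fold change 0.05, 95% interval -0.01 to 0.10) and Ago4 (log2 fold change 0.06, 95% interval -0.60 to 0.72) were not called. Ago2, the slicing Argonaute and a described partner of Lin41, had 389.6, 389 and 389.7 CPM in control and 326, 324 and 326 CPM in knockdown libraries and fell (-0.26, SE 0.02), and so did the Dicer partner gene Tarbp2 (-0.36, SE 0.0593), Xpo5, the export factor of precursors (-0.15, SE 0.0241), and Drosha, which makes them (-0.12, SE 0.0242). Zswim8, which directs the degradation of microRNAs through Argonaute, rose (0.38, SE 0.054).

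The largest single changes were smaller among the genes that remove mRNA than among those of microRNA processing and silencing. The median shifts of the exosome (-0.15) and nonsense-mediated decay (-0.11) lists were not smaller in size than the 0.09 of that list. Of 17 exosome genes 11 fell and 1 rose (median -0.15), with Exosc4 (-0.41, SE 0.06), the associated nuclease gene Dis3l (-0.40, SE 0.0566) and Exosc10 (-0.35, SE 0.0317) lowest among the genes named by the rule. Of 19 genes of nonsense-mediated decay 11 fell and 3 rose, including the helicase gene Dhx34 (-0.49, SE 0.102), the exon junction core gene Eif4a3 (-0.27, SE 0.0316) and the termination factor gene Gspt1 (-0.26, SE 0.0206) on the lower side. Among 20 deadenylase genes 6 rose and 7 fell and none reached 2-fold. The scaffold gene Cnot1 went from 1180.0 ± 9.29 to 1105 ± 15.2 CPM (SD, n = 3; -0.10, SE 0.0158), and Btg2, an antiproliferative partner of the CCR4-NOT complex, rose (0.48, SE 0.0465). The decapping enzyme gene Dcp2 (-0.26, SE 0.0251) and the 5' to 3' exonuclease gene Xrn1 (-0.25, SE 0.0316) fell, whereas Ddx6, the helicase that joins deadenylation to decapping, was not called (log2 fold change -0.03, 95% interval -0.08 to 0.01).

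Proteins that bind mRNAs to steer their stability or translation gave larger changes. Zc3h12a encodes Regnase-1, an endonuclease that cuts stem-loops in 3' UTRs, and had 34.3, 37.8 and 38.5 CPM in control and 68.1, 70.04 and 72.7 CPM in knockdown libraries. The 2 groups did not overlap (0.93, SE 0.0484, adjusted p = 5.85e-17 by edgeR). The roquin gene Rc3h2, whose protein reads similar stem-loops, rose as well (0.54, SE 0.034), and so did the cytoplasmic polyadenylation factor gene Cpeb4 (0.83, SE 0.0609). Elavl3, a neuronal AU-rich element binding protein, had 42.3, 45.8 and 44.7 CPM in control and 22.5, 21.9 and 19.7 CPM in knockdown libraries. It fell about as far as the Regnase-1 gene rose (-1.05, SE 0.0596). The tristetraprolin gene Zfp36 (-0.94, SE 0.0955) also fell, while its paralog Zfp36l1 rose (0.41, SE 0.0333) and the paralog Zfp36l2 fell (-0.27, SE 0.0488). Over this list of 28 genes 10 rose and 11 fell.

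Of 34 genes of other cytoplasmic mRNA-binding proteins 18 fell and 8 rose (median -0.10). Ybx1, a cold-shock protein that coats mRNA, had 2354, 2349 and 2335 CPM in control and 1911, 1926 and 1873 CPM in knockdown libraries (-0.30, SE 0.0138), and its paralog Ybx3 went from 452 ± 10.2 to 309 ± 1.23 CPM (-0.55, SE 0.021). The poly(A)-binding protein gene Pabpc1 fell (-0.26, SE 0.0143), as did Dazap1 (-0.56, SE 0.032) and the neural progenitor gene Msi1 (-0.34, SE 0.0579). Against them Msi2, the paralog of Msi1 (0.41, SE 0.0352), and L1td1, a domesticated transposon RNA-binding protein of pluripotent cells, rose. L1td1 had 689, 696 and 715 CPM in control and 888, 908 and 890.5 CPM in knockdown libraries (0.36, SE 0.0177).

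Splicing regulators moved in both directions, also within classes. The muscleblind genes Mbnl1 and Mbnl2, whose proteins promote the isoforms of differentiated cells, rose. Mbnl1, also a described Trim71 target, had 12.1, 14.8 and 12.8 CPM in control and 34.2, 34.2 and 34.96 CPM in knockdown libraries and Mbnl2 had 13.6, 12.9 and 13.3 CPM in control and 24.2, 22.8 and 21.6 CPM in knockdown libraries. The groups were apart for both genes (log2 1.39, SE 0.0761 and 0.79, SE 0.0751). The polypyrimidine tract binding genes Ptbp1 (-0.36, SE 0.0176) and Ptbp2 (-0.44, SE 0.0486) fell, with the epithelial regulators Esrp1 (-0.40, SE 0.0406) and Esrp2 (-0.39, SE 0.0879). Mbnl3 and Ptbp3 were not called, and Nova1 was called higher but Nova2 lower. In all, 6 of 24 tissue-restricted regulators rose and 11 fell.

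Among 36 SR proteins and hnRNPs, 7 rose and 18 fell (median -0.08). Srsf7 had 119.6, 117 and 119.6 CPM in control and 223, 212 and 218 CPM in knockdown libraries, and Srsf3 had 294, 308 and 294 CPM in control and 497, 512 and 499.7 CPM in knockdown libraries. Both SR proteins, together with the splicing enhancer gene Tra2a (0.58, SE 0.0337), rose in every knockdown library (log2 0.87, SE 0.0299 and 0.75, SE 0.0217). The remaining called members that rose did so by 0.20 or less, as Srsf10 (0.20, SE 0.0219) and Tra2b (0.19, SE 0.0212) show. Other SR protein genes, namely Srsf1, Srsf2, Srsf6 and Srsf11, were called lower. Of the hnRNPs, which coat nascent transcripts, Hnrnpl (-0.37, SE 0.019) and Hnrnpab (-0.35, SE 0.0162) fell and Hnrnpf was not called (log2 fold change -0.02, 95% interval -0.06 to 0.01). Hnrnpr and Hnrnpul2 were called higher.

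The m6A system, which marks adenosines in mRNA for splicing, decay and translation, was the RNA branch with the highest median (0.13). Of 18 genes 9 rose and 3 fell. The readers Ythdf2 (0.33, SE 0.0366), Ythdc1 (0.31, SE 0.0267) and Ythdf3 (0.27, SE 0.0235) and the writer scaffold gene Virma (0.31, SE 0.0264) rose, and the separate methyltransferase gene Mettl16 (-0.42, SE 0.0374) and the eraser gene Alkbh5 (-0.38, SE 0.0278) fell. The eraser gene Fto was called higher, and the writer genes Mettl3 and Mettl14 were not called, so writers and erasers did not each move as a class. Of 28 genes of RNA modification outside m6A 10 fell, 5 rose and 13 were not called (35.7% lower and 17.9% higher, median -0.04). Their median level in control was 42.8 CPM, and of all tested genes between 10 and 100 CPM 27.3% fell and 31.6% rose. The tRNA methyltransferase gene Nsun2 (-0.40, SE 0.0212) and the pseudouridine synthase gene Dkc1 (-0.36, SE 0.0235) were among the lower. Of 19 genes of cleavage and polyadenylation 7 fell and 4 rose, with Cstf3 lowest (-0.51, SE 0.0368) and the cleavage factor gene Pcf11 among the higher (0.28, SE 0.0343).

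Genes that build ribosomes and start translation fell together by small amounts. Of 41 initiation factors 29 fell and 3 rose (median -0.19), and the summed level of the list was 16890 to 17040 CPM in sh-ctrl and 15270 to 15450 CPM in sh-Lin41. Eif3b (-0.32, SE 0.0188), Eif3d (-0.35, SE 0.0235) and Eif6 (-0.41, SE 0.0406) fell, and Eif4a2, the paralog of the helicase gene Eif4a1, rose (0.24, SE 0.018) where Eif4a1 fell (-0.14, SE 0.0136). Of 41 ribosome biogenesis factors 25 fell and 6 rose (median -0.13). Nucleolin, encoded by Ncl, had 3214, 3208 and 3182 CPM in control and 2470.0, 2536 and 2476 CPM in knockdown libraries. Every knockdown library lay below every control (log2 -0.36, SE 0.0143). The helicase genes Ddx18 (-0.46, SE 0.0283) and Ddx21 (-0.31, SE 0.019) fell too. Cytosolic ribosomal protein genes were mixed, with 31 of 80 lower and 21 higher (median -0.02). The count of higher ones was 13 without sh-ctrl replicate 2, 12 without sh-Lin41 replicate 1 and 10 with DESeq2. Many of these genes have processed pseudogenes, so their reads can be shared.

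Trim71 belongs to a family of RING ligases, some of which bind RNA. Of 32 genes in the list of TRIM proteins 9 rose and 6 fell. Trim46, which organises microtubules in axons, fell most (-1.22, SE 0.132), the nuclear receptor cofactor gene Trim24 (0.33, SE 0.0283) rose, and Trim28, the corepressor of transposons, was not called (log2 fold change -0.01, 95% interval -0.04 to 0.02). Of 12 genes described as Trim71 targets or partners 5 rose and 4 fell, and Cdkn1a was among those not called. Inhbb, an activin subunit gene, had 90.6, 86.6 and 87.4 CPM in control and 179.5, 175 and 175 CPM in knockdown libraries (1.00, SE 0.0302), and the pocket protein genes Rbl1 (0.91, SE 0.0537) and Rbl2 (0.37, SE 0.081) rose, while Mafk (-0.76, SE 0.148) and Egr1 (-1.69, SE 0.0511) fell.

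Identity genes moved in both directions. Over 17 lists with 215 distinct genes tested 39.5% rose and 24.2% fell, and 49 changed at least 2-fold. Without the lists of the 2-cell-like state and of Hox genes, many of which were under 1 CPM in control, 33.7% of 187 genes rose and 27.3% fell, and 29 changed at least 2-fold. A gene that passes the filter only through its knockdown values has to differ, so what these lists add to the higher share is no support. These 187 still include the pluripotency list, in which 19 of 29 genes rose and 3 fell.

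**Figure D3:**
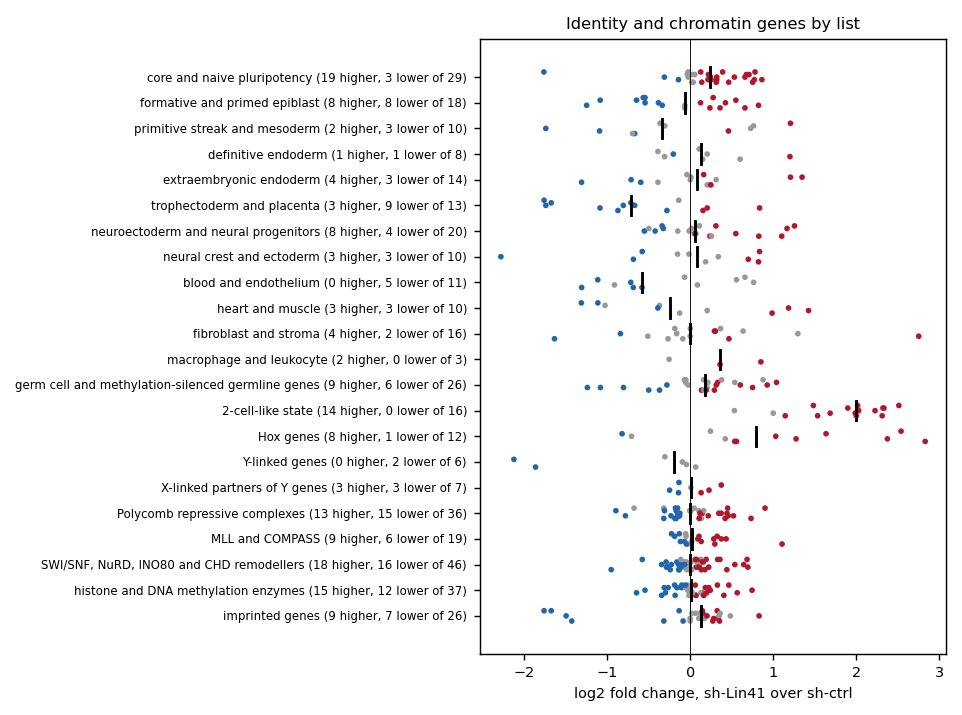
Log2 fold change of sh-Lin41 over sh-ctrl for each tested member of the identity and chromatin lists with at least 3 tested members (red called higher, blue called lower, grey not called; black bar, median). In the pluripotency list 19 of 29 lie in the higher called group, and Dppa3 is the lowest member.

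Most genes of the list of core and naive pluripotency were higher. Of 29 genes 19 rose, 3 fell and 7 were not called, Tfcp2l1 among the last (median 0.24). The orphan receptor gene Nr0b1 (0.77, SE 0.0378) and the germline and naive regulator gene Prdm14 (0.75, SE 0.0485) rose, whereas Pou5f1, which encodes Oct4, rose by only 0.14, and the growth factor gene Fgf4 was not called (log2 fold change 0.03, 95% interval -0.02 to 0.08). Dppa3, also called Stella, protects methylation marks in the early embryo. It had 17.6, 21.7 and 17.7 CPM in control and 6.08, 5.596 and 5.01 CPM in knockdown libraries, and all knockdown libraries lay far below the controls (-1.76, SE 0.104, adjusted p = 1.53e-15 by edgeR). Utf1 (-0.31, SE 0.0275) and Dppa5a (-0.14, SE 0.023) were the other 2 that fell. The epiblast list held 8 higher and 8 lower genes of 18, with Fgf15 (-1.25, SE 0.0691) and the N-cadherin gene Cdh2 (-1.08, SE 0.107) lowest, and Foxd3 (0.82, SE 0.077) and Sall2 (0.66, SE 0.101) highest.

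Lineage genes were at low levels, and most lists held both genes that rose and genes that fell. Over all tested genes 26.9% rose and 27.3% fell, and the heart and muscle list (30% and 30%) was near these shares. In control, 3 of 10 tested streak and mesoderm genes, 6 of 11 of blood and endothelium and 7 of 10 of heart and muscle reached 1 CPM. A gene that passes the filter only through 1 group has to differ, so these counts describe the lists. Of 13 tested trophectoderm and placenta genes 9 fell and 3 rose. Phlda2, an imprinted placental growth restrainer, had 11.8, 9.85 and 12.2 CPM in control and 3.42, 3.52 and 3.03 CPM in knockdown libraries (-1.76, SE 0.131), and Ascl2, a trophoblast factor gene, went from 1.93 ± 0.491 to 0.593 ± 0.14 CPM (-1.67, SE 0.314). The keratin genes Krt8 (-0.87, SE 0.122) and Krt18 (-1.09, SE 0.231) fell with them. Of 11 tested blood and endothelium genes 5 fell, among them Flt1, a receptor of VEGF (-1.11, SE 0.15), Cd34 (-1.31, SE 0.211) and Pecam1 (-0.58, SE 0.0514), which stem cells also express, and the summed level of the list was 68.9 to 72.5 CPM against 45.1 to 50.2 CPM. Of 20 tested neuroectoderm genes 8 rose and 4 fell. Sox1, the earliest neuroectoderm factor, had 6.41, 8.76 and 8.89 CPM in control and 16.97, 16.9 and 17.8 CPM in knockdown libraries, and Meis2 had 2.804, 3.58 and 2.29 CPM in control and 6.38, 7.19 and 6.99 CPM in knockdown libraries. No knockdown value of either gene lay within the control range (log2 1.10, SE 0.0991 and 1.26, SE 0.147), but the neuronal tubulin gene Tubb3 fell (-0.32, SE 0.0432). Of 10 tested genes of primitive streak and mesoderm 3 fell, among them the T-box factor gene Eomes (-0.67, SE 0.091), and 2 rose, and the summed level of this list was 28.3 to 30.5 CPM in sh-ctrl and 21.4 to 23.3 CPM in sh-Lin41. The definitive endoderm list was mostly not called (6 of 8), with Hnf4a higher (1.20, SE 0.2) and Trh lower (-0.20, SE 0.0248). In the heart and muscle list 3 of 10 rose, such as the methyltransferase gene Smyd1 (1.43, SE 0.185), and 3 fell, such as the troponin gene Tnni3 (-1.11, SE 0.287).

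Genes of the 2-cell-like state, a rare state of stem cells that resembles the embryo after its first division, stood apart. Of 28 listed genes 16 were tested, 14 rose, all of them at least 2-fold. Only 6 of the 16 reached 1 CPM in control, and a gene that passes the filter through its knockdown values has to differ, so this count describes the list and is no support. The summed level of all listed genes found was 18.5 to 21.6 CPM in sh-ctrl and 87 to 92.9 CPM in sh-Lin41. Zscan4c had 4.005, 3.26 and 4.53 CPM in control and 15.01, 15.4 and 16.8 CPM in knockdown libraries. The Zscan4 genes are near-identical copies, and reads may be split between them. The same caution holds for Hox genes, of which 12 of 39 were tested and 6 reached 1 CPM in control. Among these 8 rose and 1 fell, with 5 higher without sh-ctrl replicate 3, without sh-Lin41 replicate 2 or with DESeq2. Hoxa7 went from 1.04 ± 0.212 to 3.29 ± 0.783 CPM (1.64, SE 0.24).

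Germ cell genes and Y-linked genes also split. Of 26 germline genes 9 rose and 6 fell. The meiotic axis gene Hormad1 rose from 25.3 ± 2.22 to 52.1 ± 3.41 CPM (1.04, SE 0.0625), while Sycp3, which encodes another axis protein, fell from 16.8 ± 1.24 to 7.14 ± 0.522 CPM (-1.24, SE 0.0981) and the germ cell helicase gene Ddx4 fell (-1.08, SE 0.0935). Of 6 tested Y-linked genes 2 fell. Uba1y, a ubiquitin-activating enzyme gene, had 34.9, 30.9 and 33.2 CPM in control and 6.93, 8.35 and 7.43 CPM in knockdown libraries (-2.12, SE 0.0801) and Zfy1, a zinc finger gene, had 5.26, 4.16 and 5.401 CPM in control and 1.21, 1.54 and 1.32 CPM in knockdown libraries (-1.86, SE 0.19). Both genes were far lower in every knockdown library, whereas Ddx3y (log2 fold change 0.07, 95% interval -0.03 to 0.16), Eif2s3y (log2 fold change -0.04, 95% interval -0.13 to 0.04) and Uty (log2 fold change -0.09, 95% interval -0.23 to 0.04) were not called. Against sh-Pfkp the differences were as wide (Uba1y -2.21, SE 0.0785, adjusted p = 3.5e-21; Zfy1 -1.998, SE 0.185, adjusted p = 7.05e-11 by edgeR). In that contrast 55.1% of all tested genes were called. Their X-linked partner Zfx, which shares sequence with Zfy1, rose (0.23, SE 0.0351) and Uba1 fell (-0.14, SE 0.0176).

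Chromatin regulators were about as often higher as lower, and the members that rose most belonged to different complexes. Over 164 genes 39% rose and 34.1% fell. In the Polycomb list, whose complexes silence developmental genes, 13 of 36 rose and 15 fell. Bmi1, a PRC1 subunit gene, had 15.4, 13.9 and 12.6 CPM in control and 25.8, 27.4 and 25.1 CPM in knockdown libraries (0.90, SE 0.0746), and its paralog Pcgf5 fell (-0.90, SE 0.0885). Among the accessory subunit genes of PRC2 those that rose included Epop (0.73, SE 0.0217), Aebp2 (0.52, SE 0.0263), Jarid2 (0.46, SE 0.019) and Mtf2 (0.37, SE 0.0203), and its catalytic subunit gene Ezh2 fell (-0.23, SE 0.0261). Epop had 305, 304 and 299 CPM in control and 518, 490.5 and 500.3 CPM in knockdown libraries, so the groups were far apart. In the COMPASS family, which methylates histone H3 at lysine 4, 9 of 19 rose and 6 fell. Setd1b had 36.6, 41.6 and 35.1 CPM in control and 80.1, 82.4 and 80.8 CPM in knockdown libraries (1.11, SE 0.0471, adjusted p = 3.38e-19 by edgeR) and was the member that passed 2-fold, and Ash1l rose less (0.43, SE 0.0385).

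Remodellers were balanced, with 18 of 46 higher and 16 lower. The helicase gene Chd2 rose (0.69, SE 0.0291), while Chd3 fell from 55.6 ± 1.89 to 28.8 ± 0.541 CPM (-0.95, SE 0.0474) and its NuRD partners were divided. Mta1 (-0.58, SE 0.031), Chd4 (-0.28, SE 0.016) and Mbd3 (-0.29, SE 0.041) fell, whereas Mbd2 (0.65, SE 0.092), Hdac2 (0.18, SE 0.0282), Gatad2b (0.16, SE 0.0298) and Hdac1 (0.08, SE 0.0208) rose. Of 37 histone and DNA methylation enzymes 15 rose and 12 fell. Tet2, which oxidises methylated cytosine, had 427, 422 and 419.9 CPM in control and 710.0, 719.5 and 696 CPM in knockdown libraries, with a wide gap between the groups (0.74, SE 0.0194). The histone methyltransferase gene Nsd1 (0.47, SE 0.019) rose, and the lysine demethylase gene Kdm1a (-0.31, SE 0.0251) and the G9a gene Ehmt2 (-0.34, SE 0.0301) fell. Zfp57, a zinc finger protein that keeps methylation at imprinted loci, had 340.3, 346 and 339.5 CPM in control and 565, 566 and 570.0 CPM in knockdown libraries (0.73, SE 0.0193). Among 26 imprinted genes 9 rose and 7 fell. Peg3 rose from 117 ± 3.82 to 208 ± 4.7 CPM (0.83, SE 0.0297) and Mest rose (0.33, SE 0.022), whereas Dlk1 fell from 2.89 ± 0.29 to 1.01 ± 0.21 CPM (-1.49, SE 0.233), and Phlda2 and Ascl2 were given above.

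**Figure D4:**
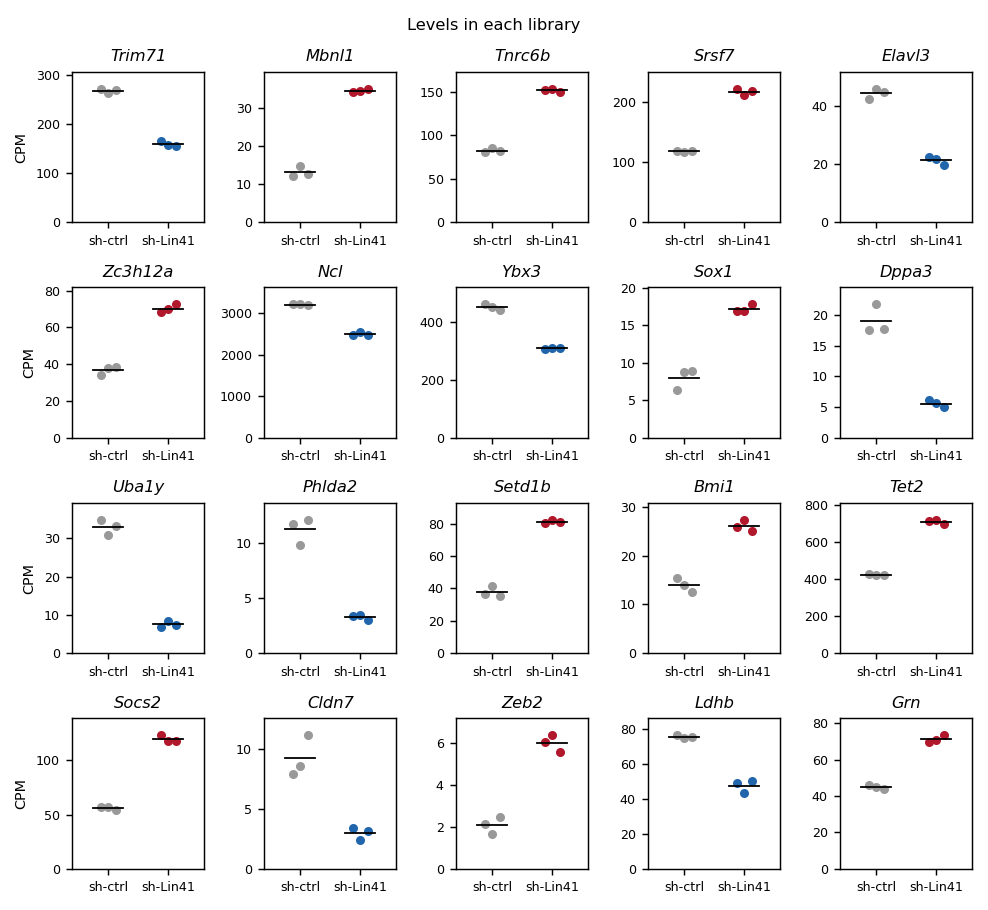
Level in CPM of 20 genes of the text in each library (points, 3 per group; black line, group mean; y axes start at 0). For every gene shown the sh-ctrl and sh-Lin41 libraries do not overlap.

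Signalling genes moved in both directions within each pathway. Of 184 genes over 7 lists 32.1% rose and 28.8% fell. In the NODAL, activin and BMP list 12 of 38 rose and 12 fell, and 7 fell with DESeq2. The antagonists Lefty1 (-0.90, SE 0.0571) and Lefty2 (-0.90, SE 0.0368), which NODAL itself induces, fell, whereas the receptor gene Acvr2a (0.50, SE 0.0558) rose. The inhibitor genes that BMP induces were divided, since Id3 (0.81, SE 0.0933) and Id4 (0.58, SE 0.144) rose and Id1 (-0.16, SE 0.0538) and Id2 (-0.30, SE 0.124) fell. The calls of Id1 (-0.14) and Id2 (-0.30) were lost without sh-ctrl replicate 3, that of Id1 also without sh-ctrl replicate 1 (-0.14), that of Id2 without any 1 of the sh-ctrl libraries (-0.31 to -0.29) or sh-Lin41 replicate 3 (-0.22), and both with DESeq2. Lefty2 had 111, 116 and 113 CPM in control and 58.9, 63.5 and 59.2 CPM in knockdown libraries. In the WNT list 11 of 34 rose and 8 fell. The receptor genes Fzd10 (0.96, SE 0.0987) and Fzd6 (0.92, SE 0.127) and the feedback gene Notum (0.74, SE 0.073) rose, and the ligand gene Wnt7b (-1.49, SE 0.196) and the feedback gene Nkd2 (-0.78, SE 0.202) fell.

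In the FGF and ERK list 9 of 31 genes rose and 10 fell. Of the feedback inhibitors, which dampen the pathway, Spry4 (0.69, SE 0.0239), Spred1 (0.64, SE 0.028) and Dusp14 (0.62, SE 0.114) rose, but Dusp1 (-0.84, SE 0.0698) and Spry1 (-0.37, SE 0.109; not called without sh-ctrl replicate 3, at -0.25) fell. Among the immediate early genes, which respond within minutes to stimulation and to handling, Fos (-1.69, SE 0.153), Egr1 and Ier3 (-2.23, SE 0.106) fell. Junb, Jund and Atf3 were called lower too. Fosb, Jun, Ier2, Ier5 and Myc were not called, although Myc was called higher (0.16) without sh-ctrl replicate 1. In the LIF list Socs2, a cytokine-induced inhibitor, had 56.9, 56.6 and 53.8 CPM in control and 123, 117 and 118 CPM in knockdown libraries (1.10, SE 0.0368), against falls of the related Socs3 (-0.28, SE 0.0318) and of the STAT3-induced kinase gene Pim1 (-0.71, SE 0.0435). In the Hippo list 8 of 23 rose and 4 fell, with Mob1b (0.81, SE 0.0439), a coactivator of the pathway's kinases, among the higher and the YAP target gene Ccn2 (-0.52, SE 0.127) among the lower. Yap1 was not called (log2 fold change 0.02, 95% interval -0.04 to 0.08). In the Notch and Hedgehog list Lfng, which glycosylates Notch, had 3.49, 3.64 and 3.76 CPM in control and 1.105, 0.482 and 0.936 CPM in knockdown libraries and fell furthest (-2.11, SE 0.243), Notch3 (-0.53, SE 0.0403) and Hey1 (-0.68, SE 0.182) fell, and Notch1 (0.32, SE 0.0342), Rbpj (0.27, SE 0.0169) and Ptch1 (0.44, SE 0.0318) rose.

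**Figure D5:**
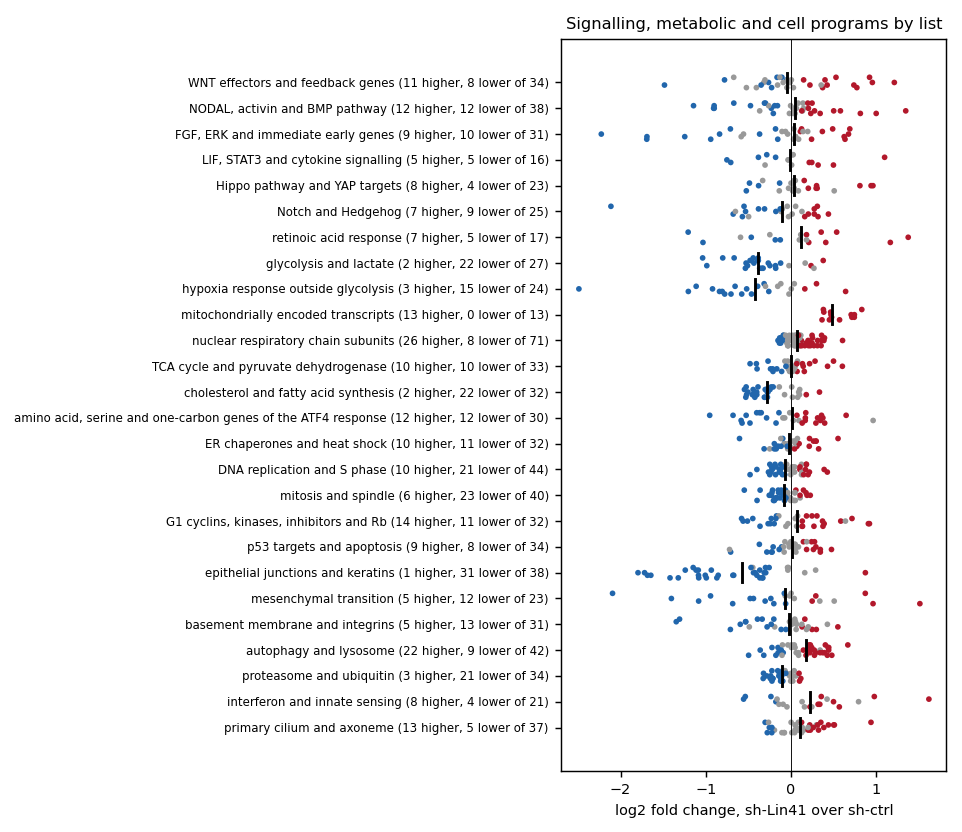
Log2 fold change of sh-Lin41 over sh-ctrl for each tested member of the signalling, metabolic and cell program lists (red called higher, blue called lower, grey not called; black bar, median). The epithelial list has the lowest median (-0.57), with 31 of 38 members in the lower called group.

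Most genes of glycolysis and of the hypoxia response fell. Of 27 glycolysis genes 22 fell and 2 rose (median -0.38), and of 24 hypoxia-response genes 15 fell and 3 rose (median -0.43). Pfkfb3, whose product activates phosphofructokinase, fell from 55.6 ± 2.63 to 27.1 ± 0.324 CPM (-1.04, SE 0.0493), and Ldhb (-0.67, SE 0.0442), Aldoc (-0.80, SE 0.0868) and Tpi1 (-0.54, SE 0.0186) fell with it, while Pfkfb2 (0.38, SE 0.0978) and the muscle phosphofructokinase gene Pfkm (0.24, SE 0.0587) rose. In CPM the largest single loss was that of Gapdh, which had 5385, 5290.0 and 5347 CPM in control and 4542, 4448 and 4515 CPM in knockdown libraries (-0.25, SE 0.0126). Ak4, a mitochondrial adenylate kinase gene induced by hypoxia, went from 272 ± 4.45 to 126 ± 2.92 CPM (-1.11, SE 0.0255), and Ero1a, an oxidase of protein folding, had 319.6, 323 and 323 CPM in control and 185, 189.9 and 188 CPM in knockdown libraries (-0.78, SE 0.0233). Hif1a was not called (log2 fold change -0.02, 95% interval -0.07 to 0.03), and Epas1, which encodes HIF-2 alpha, rose (0.64, SE 0.0354).

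Since most of these genes fell, their promoters were searched for ACGTG on either strand, letters that many hypoxia response elements contain. The hypoxia list was made of genes of that response, so an excess of these letters can follow from the choice of members. Such an excess is no result about the knockdown. Of 45 tested members of both lists with an entry in the RefSeq promoter table (250 bases before to 50 after the start), 51.1% held it, as did 56.2% of the 32 that fell. The share was 19.6% of all 27025 promoters in the table and 25.8% of 10409 tested genes. Over all tested genes it was 26.9% of those called higher and 27.6% of those called lower, and at 2-fold or more it was 19.4% of 175 higher and 30.7% of 215 lower genes. These sets include the members, and the shares carry no test. CACGTG, which contains ACGTG and also serves other factors, was in 13.3% of the members, 9.38% of the 32 that fell and 10.3% of tested genes. The promoters below, from RefSeq on GRCm38.p6, are shown for the lactate dehydrogenase gene Ldha (chr7:46845554-46845853, plus strand) and for Bnip3, a mitophagy receptor gene (chr7:138909457-138909756, minus strand), with ACGTG and its reverse complement CACGT in capitals.
Ldha: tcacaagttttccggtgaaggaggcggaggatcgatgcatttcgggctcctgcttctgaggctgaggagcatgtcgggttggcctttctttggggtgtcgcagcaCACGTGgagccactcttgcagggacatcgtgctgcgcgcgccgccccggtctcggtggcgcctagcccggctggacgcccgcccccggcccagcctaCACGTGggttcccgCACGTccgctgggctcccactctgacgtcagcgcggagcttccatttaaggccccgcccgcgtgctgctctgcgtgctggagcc
Bnip3: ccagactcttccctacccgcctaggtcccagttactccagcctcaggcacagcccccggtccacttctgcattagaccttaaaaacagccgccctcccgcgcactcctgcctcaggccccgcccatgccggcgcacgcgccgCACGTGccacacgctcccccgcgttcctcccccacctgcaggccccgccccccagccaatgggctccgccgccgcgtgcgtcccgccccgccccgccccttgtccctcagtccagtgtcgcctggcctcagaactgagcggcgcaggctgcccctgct
Ldha had 1823, 1821 and 1829 CPM in control and 1318, 1334 and 1319 CPM in knockdown libraries (-0.46, SE 0.0143) and Bnip3 had 255, 248 and 241 CPM in control and 140.5, 139 and 136 CPM in knockdown libraries (-0.84, SE 0.0293), and neither gene's groups overlapped. Both promoters hold CACGTG, which few of the members that fell had, so they are not typical of these members. A match is a description of letters and not evidence of a bound factor.

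Respiratory genes went the other way. All 13 mitochondrially encoded transcripts rose, by 0.36 to 0.83 on the log2 scale. Of 71 nuclear subunits 26 rose and 8 fell (median 0.07), as in Ndufa3 (0.61, SE 0.105) and Uqcrq (0.39, SE 0.0412), while the abundant ATP synthase gene Atp5a1 was not called (log2 fold change -0.02, 95% interval -0.05 to 0.01). Of 32 cholesterol and fatty acid genes 22 fell (median -0.28). The isomerase gene Idi1 (-0.52, SE 0.0315), Dhcr7 (-0.55, SE 0.0472) and the desaturase gene Scd2 fell. Scd2 had 841, 855 and 859.8 CPM in control and 579.6, 601 and 595 CPM in knockdown libraries (-0.53, SE 0.0181). Genes of the TCA cycle (10 higher and 10 lower of 33) and of the ATF4 response (12 and 12 of 30) were balanced, with Acly (-0.41, SE 0.0217) and Chac1 (-0.57, SE 0.0819) lower and Pcx (0.43, SE 0.052) and the amino acid transporter gene Slc38a2 (0.40, SE 0.0239) higher. Chaperone genes were balanced too (10 and 11 of 32), with the heat shock genes Hspd1 (-0.32, SE 0.015) and Hsp90aa1 (-0.20, SE 0.0125) lower and Hspb1 higher (0.55, SE 0.0226).

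Epithelial genes fell most among the cell programs. Of 38 junction and keratin genes 31 fell, 13 of them at least 2-fold, and the desmoglein gene Dsg2 rose (0.87, SE 0.0512). A second gene was called higher without sh-Lin41 replicate 3. Cldn7, a claudin of tight junctions, had 7.896, 8.57 and 11.1 CPM in control and 3.36, 2.36 and 3.14 CPM in knockdown libraries (-1.65, SE 0.155), and the keratin gene Krt19 had 5.66, 5.498 and 6.38 CPM in control and 1.61, 1.78 and 1.65 CPM in knockdown libraries (-1.80, SE 0.195). For both genes the knockdown libraries lay well below all controls. The epithelial factor gene Ovol1 (-1.69, SE 0.218) fell, and the tight junction scaffold gene Tjp1 was not called (log2 fold change -0.04, 95% interval -0.09 to 0.01). Genes of the mesenchymal list did not rise as a group, since 12 of 23 fell and 5 rose. Zeb2 had 2.12, 1.66 and 2.46 CPM in control and 6.03, 6.37 and 5.56 CPM in knockdown libraries, and with Zeb1 (0.87, SE 0.0719), a repressor of epithelial genes like it, was among those that rose (1.51, SE 0.17). Cdh2, Snai3 (-1.40, SE 0.192) and S100a6 (-2.10, SE 0.272) fell. In the basement membrane list 13 of 31 fell and 5 rose, with the integrin gene Itga1 (-1.35, SE 0.182) and Sparc (-0.59, SE 0.0417) among the lower and the proteoglycan gene Agrn (0.13, SE 0.0236) among the higher.

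Genes of S phase and mitosis were more often lower than higher. Of 44 S phase genes 21 fell and 10 rose (47.7% and 22.7%), and of 40 mitotic genes 23 fell and 6 rose (57.5% and 15%). Their median levels in control were 110.3 and 203.3 CPM. Of all tested genes between 100 and 1000 CPM 44.6% fell and 31.3% rose, so the S phase share of falls was near that of its level. The origin gene Orc1 (-0.48, SE 0.0335), the kinesin gene Kif23 (-0.55, SE 0.026) and Cdc20 (-0.36, SE 0.0265) fell, Tyms rose (0.39, SE 0.0399), and the mitotic cyclin gene Ccnb1 was not called (log2 fold change -0.01, 95% interval -0.05 to 0.04). Of 32 G1 genes 14 rose and 11 fell, with the inhibitor gene Cdkn2c (0.72, SE 0.204) higher and E2f1 (-0.45, SE 0.0417) lower. Of 34 genes of the p53 response and apoptosis 9 rose and 8 fell, with Apaf1 (0.48, SE 0.0432) highest and Ccng2 (-0.71, SE 0.0577) lowest by the rule, and Trp53 itself fell (-0.23, SE 0.0224).

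Protein degradation split between its routes. Of 42 autophagy and lysosome genes 22 rose and 9 fell (median 0.18). Grn, the lysosomal progranulin gene, had 46.1, 44.8 and 43.8 CPM in control and 69.8, 70.8 and 73.6 CPM in knockdown libraries (0.67, SE 0.0414), the membrane protein gene Lamp1 rose from 418 ± 4.94 to 566 ± 6.3 CPM (0.44, SE 0.0195), and Map1lc3b (0.44, SE 0.0368) and Glb1 (0.48, SE 0.0513) rose. Of 34 proteasome and ubiquitin genes 21 fell and 3 rose (median -0.10), among them Psmd14 (-0.33, SE 0.0266) and Psmb2 (-0.32, SE 0.0271). Of 21 tested interferon genes 8 rose and 4 fell, and 2 fell without sh-Lin41 replicate 3. Oas2, a sensor of double-stranded RNA, had 2.804, 2.75 and 1.96 CPM in control and 7.18, 6.95 and 8.97 CPM in knockdown libraries (1.62, SE 0.161), H2-D1 rose from 4.803 ± 0.919 to 9.54 ± 0.362 CPM (0.98, SE 0.146), the sensor gene Ddx58 rose (0.57, SE 0.0411), and Ifitm1 (-0.54, SE 0.0433) and Irf1 (-0.56, SE 0.107) fell. Of 37 cilium genes 13 rose and 5 fell, with Bbs1 highest (0.94, SE 0.118).

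Some of the widest shifts in counts lay outside the lists above. Tmem72, a membrane protein gene, had 595, 601 and 580.5 CPM in control and 1284, 1327 and 1319 CPM in knockdown libraries, the largest gain in CPM among named nuclear genes (1.15, SE 0.017). The focal adhesion gene Tns3 (0.63, SE 0.019), the kinase gene Wnk1 (0.34, SE 0.0166), the corepressor gene Ncor1 (0.46, SE 0.0188) and Sall1 (0.61, SE 0.0203) followed among the gains, and the nuclear import gene Kpnb1 (-0.39, SE 0.0153) was among the losses. Below the 8 largest falls by fold came the homeobox gene Phox2a (-2.10, SE 0.29), the lipase gene Pla2g7 (-1.94, SE 0.261), the calcium channel gene Cacna1h (-1.76, SE 0.106) and the anchoring fibril collagen gene Col7a1 (-1.78, SE 0.194).

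Several of these responses differed from those in the sh-Pfkp libraries, which share the same controls, by the direct contrast of the knockdowns in the same edgeR fit. Of all tested genes 55.1% were called in this contrast, so a call alone does not set these genes apart. Higher in sh-Lin41 than in sh-Pfkp were Ccnd2 (1.34, SE 0.0489, adjusted p = 6.71e-21), Zc3h12a (1.26, SE 0.0496, adjusted p = 5.77e-20), Inhbb (0.99, SE 0.0298, adjusted p = 6.93e-23), Tet2 (0.70, SE 0.0192, adjusted p = 8.55e-24), Zfp57 (0.62, SE 0.019, adjusted p = 9.99e-23), Peg3 (0.72, SE 0.0291, adjusted p = 9.15e-20) and Tnrc6b (0.59, SE 0.0308, adjusted p = 7.53e-17). Lower in sh-Lin41 were Dppa3 (-1.55, SE 0.105, adjusted p = 5.03e-14), Lfng (-1.77, SE 0.25, adjusted p = 3.92e-07), Lin28a (-0.60, SE 0.0221, adjusted p = 8.17e-21), Ncl (-0.34, SE 0.0142, adjusted p = 4.21e-19) and Mettl16 (-0.61, SE 0.0363, adjusted p = 2.21e-15). For Socs2 (0.05, SE 0.0324, adjusted p = 0.227), Zscan4c (-0.04, SE 0.087, adjusted p = 0.721), Bmi1 (0.00, SE 0.0661, adjusted p = 0.997) and Ldha (-0.02, SE 0.0143, adjusted p = 0.264) no difference between the knockdowns was called.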

How the data were processed

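Gene-level RNA-seq tables of 9 libraries of mouse R1 cells were used, 6 of them compared. Tools listed in the submitters' processing notes are fastp 0.18.0, Bowtie2 2.2.8, StringTie 1.3.1, HISAT2 and RSEM, whereas build, annotation and strand setting are not given. Reads of overlapping or antisense genes therefore cannot be told apart. The authors deposited whole-number read counts, which may be rounded RSEM estimates, and FPKM values for each library. The authors' deposited table also holds a log2 ratio, a p-value and an FDR per gene, and was used only to count shared calls.

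Counts were tested with edgeR 4.0.16 in R 4.3.3 over all 9 libraries (filterByExpr by group, TMM, quasi-likelihood, 6 residual degrees of freedom, Benjamini-Hochberg over 13158 genes, threshold 0.05). Each SE comes from the log2 fold change and the root of its F value. Expression levels are given in CPM on TMM-adjusted totals of the tested genes. A gene with 0 counts has an upper limit of 3 counts per library, which covers counting error only. On data simulated for this comparison (13094 genes tested), 64% of 50 genes changed by 1.25-fold, 90% by 1.5-fold and 96% by 2-fold were recovered, and 12 of 12894 unchanged genes were called. The members and the 66 gene lists were chosen with earlier results of these data known, so no list carries a p. Of the listed names 7 were matched through older symbols in RefSeq. Genes were named by a fixed rule: Trim71, in each list up to 5 called members per direction with the largest fold change and at least 1 CPM plus the 3 most abundant, the 15 largest gains and losses in CPM, and ranks 9 to 24 by fold change in each direction. Outside this rule, Ago1, Ago3, Ago4, Dusp1, Fosb, Gatad2b, Hdac1, Hdac2, Hmga2, Id1, Id2, Ier2, Ier5, Jun, Myc, Spry1 and Tor1aip1 were named after their values were seen. Atf3, Cdkn1a, Fto, Hnrnpr, Hnrnpul2, Junb, Jund, Mbnl3, Mettl3, Mettl14, Nova1, Nova2, Ptbp3, Srsf1, Srsf2, Srsf6, Srsf11 and Tfcp2l1 were added without values after their calls were seen. Their calls under the alternatives are not given. The 3' UTR used for a gene came from GENCODE M21 (12883 tested genes with at least 50 bases), and promoter and microRNA sequences came from RefSeq.

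Replicate pairs had a median chi-square of 0.661 to 0.769 over genes with enough counts, against 0.455 from counting noise, so none was treated as one library. Deviations of same-numbered sh-ctrl and sh-Lin41 libraries correlated at 0.019, -0.003 and 0.009 over 8607 genes, so the numbers were not taken as pairs. Alternatives were DESeq2 1.42.0, other scalings and filters, a fit of the 6 libraries, the replicate number as a block, the omission of each library, and limma-trend (limma 3.58.1) on log2(FPKM + 1).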

Additional observations from a re-analysis of the deposited data

How the results depend on the processing

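Over 15 alternatives the counts of genes called higher and lower stayed within 1.5 times of 3545 and 3596, except that limma-trend on log2(FPKM + 1), a scale that compresses low genes, gave 37 genes at least 2-fold higher and 41 at least 2-fold lower in place of 268 and 292. Without 1 library the counts were 3220 to 3331 higher and 3212 to 3384 lower, 261 to 300 at least 2-fold higher and 273 to 304 at least 2-fold lower, and Trim71 lay between -0.78 and -0.74. The median log2 fold change of all genes was 0.00 under every scaling. Although the replicate numbers were not taken to pair the samples, a fit with these numbers as a replicate block called 3523 genes higher and 3585 lower, with Trim71 at -0.75. Of 132 list counts under these alternatives, 1980 values in all, 46 moved past 1.5 times, 25 of them when a library was left out, 11 with limma-trend and 8 with DESeq2. Of 667 genes covered by the naming rule 87 had a changed call under at least 1 alternative, 59 of them when a library was left out, and 4 called genes changed sign under at least 1 alternative. Genes of this kind were mostly left out of the text. Among the printed genes, Cdkn2c (0.28, adjusted p = 0.0661) and Cdk6 (0.00, adjusted p = 0.989) lost their calls with limma-trend on log2(FPKM + 1), where Ago1 gained one (0.07), and Tor1aip1 changed sign there (-0.03, adjusted p = 0.852, not called). Calls of Ago3, Id1, Id2, Spry1 and Myc changed with DESeq2, another filter or a library left out. The causes were not tested. Depth limits the genes under 1 CPM, where the median SE was 0.413.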

Other observations

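The deposited counts and the deposited FPKM values did not always give the same direction. Of 13158 genes tested, 5463 were called here on counts and stood under an FDR of 0.05 in the same direction in the authors' deposited table, 1658 were called here only, 1 was under that FDR there only and 20 were called in opposite directions. Tor1aip1, which encodes a protein of the inner nuclear membrane and was chosen after its values were seen, had 17.2, 14.5 and 16.1 CPM in control and 24.1, 23.8 and 23.9 CPM in knockdown libraries, whereas its mean FPKM was 9.39 in sh-ctrl and 9.25 in sh-Lin41. The G1 kinase gene Cdk6 had 26.5, 25.4 and 25.97 CPM in control and 40.6, 40.2 and 35.8 CPM in knockdown libraries, with a mean FPKM of 7.59 and 7.62. The cause was not tested.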
